A study of Mus musculus with 4 samples.

Results

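The dentate gyrus granule layer was followed in 4 coronal brain sections of male wild-type C57BL/6J mice at postnatal day 21, each assayed by Visium spatial transcriptomics on formalin-fixed, paraffin-embedded (FFPE) tissue. In this assay, probe pairs hybridised to the messenger RNAs of a thin section are captured on an array of barcoded spots, and each spot gives a count of unique molecular identifiers (UMIs) per gene. The mothers received a conventional diet with 2 mg/kg folic acid (MF, 2 sections) or an excess diet with 20 mg/kg folic acid (HF, 2 sections) from before mating until the end of lactation. The study calls the 2 sections of a diet biological replicates, but the labels do not say whether their pups came from separate litters.

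Granule layer spots were chosen by measured values. Spots with at least 500 UMIs and 250 genes were kept, each was scored by the mean of ln(1 + UMIs per 10,000) over Dsp, C1ql2 and Prox1, and the 45 spots with the highest score in each section became members. This gave 180 members among 13452 kept spots, or 1.34%. A Visium spot is a small region that can hold several cells of different types, so members are spots rich in granule cell RNA rather than single granule cells.

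The granule cells of the dentate gyrus are small, densely packed excitatory neurons that receive input from the entorhinal cortex and send mossy fibre axons to the pyramidal cells of CA3. They are born over a long period that extends past birth, from radial glia-like stem cells of the subgranular zone through proliferating intermediate progenitors and immature neurons. Prox1 is the transcription factor that specifies granule cell fate, Dsp encodes the junction protein desmoplakin, and C1ql2 encodes a C1q-like protein that mossy fibres release at their synapses. In mm10, Prox1 lies at chr1:190118035-190170714 on the minus strand, and C1ql2 at chr1:120340582-120343174 and Dsp at chr13:38151294-38198577 on the plus strand.

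The members formed a compact structure, although position was not used to choose them. The largest group of adjoining members held 44 and 43 of the 45 spots in MF replicates 1 and 2, and 43 and 45 in HF replicates 1 and 2. The few strays included 1 spot with only 725 UMIs in MF replicate 1. All 3 score genes were detected in 44, 42, 43 and 45 members of these sections in that order, against 1.19% to 4.08% of the other spots. The last spot inside and the first outside the limit of 45 scored 1.007 and 1.002 in MF replicate 1, 1.007 and 0.994 in MF replicate 2, 0.988 and 0.984 in HF replicate 1, and 1.457 and 1.332 in HF replicate 2.

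**Figure D1:**
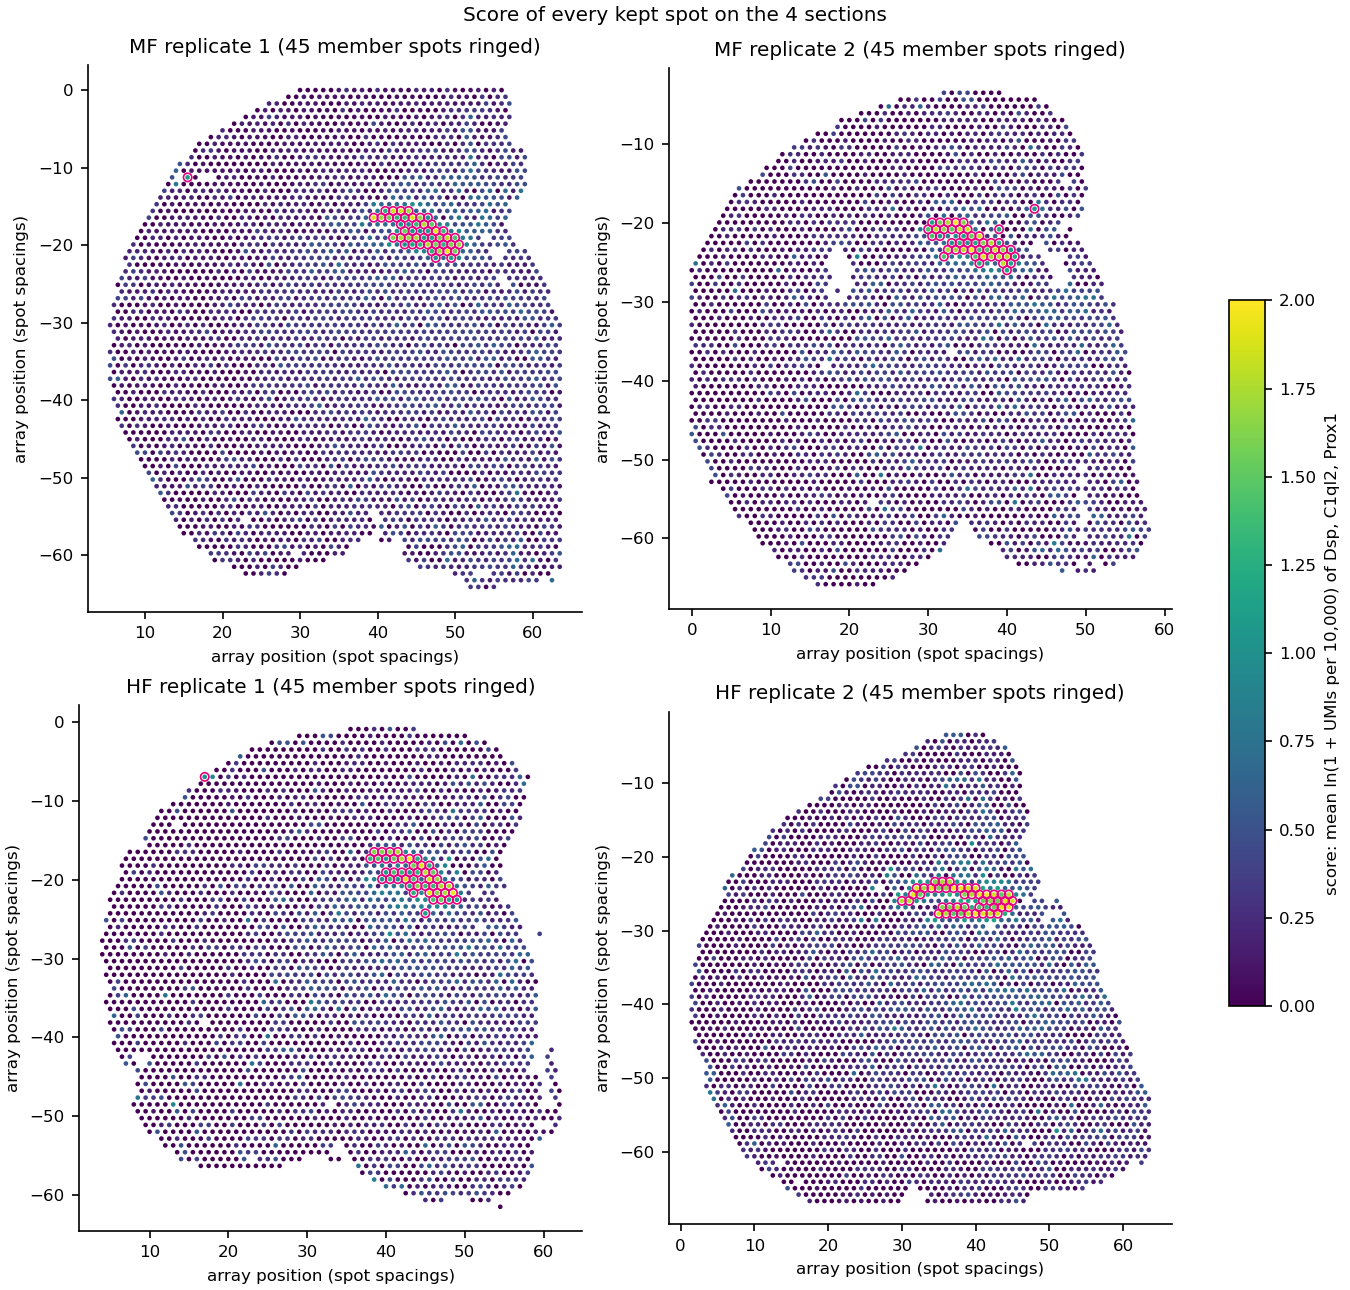
Map of the score, the mean of ln(1 + UMIs per 10,000) over Dsp, C1ql2 and Prox1, of every kept spot in the 4 sections, with both axes in spot spacings on the array and the 45 members of each section ringed. The members trace the blades of the dentate gyrus, with 0 to 2 members per section that adjoin no other.

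HF replicate 2 stood apart from the other 3 sections. Its 45 members had a median score of 1.77, against 1.44 to 1.54 elsewhere, and 46 of its spots scored at least 1.3, against 30 or 31 elsewhere. Its members held less RNA of several other cell types. The summed level of 12 astrocyte genes was 2356 CPM (counts scaled to 1000000 UMIs over the summed spots), against 3017 to 3591 CPM in the other sections. That of 10 interneuron genes was 870 CPM, against 1266 to 1405 CPM. Not every list was lowest there. Choroid plexus genes summed to 2263 CPM, against 1728 CPM in MF replicate 2. Genes of CA2-3 pyramidal cells summed to 292 CPM, against 256 CPM in HF replicate 1. The sections that enter the comparison of the diets thus differ in how much RNA of other cells their members held, and several values between the diets move when HF replicate 2 is left out.

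Total UMIs per section ranged from 34982061 to 90096877, and the members of the MF replicate 1 section, the deepest, held 2071695 UMIs against 1019583 to 1145744 in the other sections. Members were richer in RNA than the rest of the tissue. Their median UMI count was 49572, 27259, 23075 and 27082 in MF replicates 1 and 2 and HF replicates 1 and 2, which was 2.12 to 2.51 times that of the other spots. More cells in a spot and more RNA per cell cannot be told apart in these data.

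Because the score chose the members, their differences from the other spots are descriptions without a test. Dsp averaged 231 ± 29.8 CPM over the members and 5.28 ± 0.27 over the other spots (SD, n = 4 sections). C1ql2 averaged 437 ± 43.9 against 15.9 ± 2.12 CPM, and Prox1 711 ± 107 against 79.7 ± 6.20 CPM. Over all genes at 20 CPM or more in the members, 271 of 8348 (3.25%) were more than 2 times as high as in the other spots of the same section in all 4 sections.

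The genes outside the score with the highest ratios included several of developing granule neurons. Igfbpl1, an IGF-binding-like protein of immature neurons, was at 139, 137, 124 and 182 CPM in the members of MF replicates 1 and 2 and HF replicates 1 and 2, and averaged 4.67 ± 1.47 CPM over other spots. Tdo2, the tryptophan-degrading dioxygenase, was at 37.7, 35.4, 33.3 and 40.1 CPM, against 1.06 ± 0.18 CPM. Draxin, a repulsive axon guidance protein, averaged 22.7 ± 4.69 against 1.14 ± 0.14 CPM. The 4 sections lay close together for each of these genes, and no section's members came near the level of its other spots.

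Transcription factors of the granule lineage were among the 20 leading genes as well. Neurod1, needed for granule neuron differentiation, averaged 269 ± 31.5 CPM in members and 27.9 ± 4.22 CPM elsewhere. Bhlhe22 averaged 236 ± 57.5 against 24.8 ± 3.68 CPM. Both are basic helix-loop-helix factors. Zbtb20, a zinc finger repressor that shapes hippocampal identity, averaged 501 ± 101 against 70.3 ± 9.99 CPM. Sox11, a factor of newborn neurons, averaged 273 CPM (254 to 290 over the 4 sections) against 37.2 ± 4.45 CPM.

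Ntf3, the ligand neurotrophin-3, was at 74.8, 77.9, 84.3 and 91.6 CPM in the members of MF replicates 1 and 2 and HF replicates 1 and 2, and averaged 5.09 ± 0.62 CPM in other spots. Ntrk3, which encodes its receptor TrkC and was not among the 20 leading genes, averaged 489 ± 33.2 against 185 ± 12.3 CPM, so ligand and receptor were both higher in the members. Sema3c, a guidance semaphorin, averaged 157 ± 9.24 against 23.4 ± 1.98 CPM. Lct, the lactase gene, averaged 105 ± 31.8 against 6.60 ± 1.65 CPM and varied more between sections than the others.

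The stretch before the start of Prox1 is shown because Prox1 both defines the layer and carries an E-box of the letters CAGATG, a type that basic helix-loop-helix factors such as Neurod1 can bind. The window lies at chr1:190170828-190171077 of GRCm38.p6, on the minus strand, and is written from its 5′ end with the match in capitals.
Prox1: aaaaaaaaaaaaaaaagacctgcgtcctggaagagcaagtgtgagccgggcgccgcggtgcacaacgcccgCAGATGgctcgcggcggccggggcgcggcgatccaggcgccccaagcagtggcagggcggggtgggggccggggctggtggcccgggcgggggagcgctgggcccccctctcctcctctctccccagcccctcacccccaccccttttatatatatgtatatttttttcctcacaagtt
Of the 20 leading genes, 14 had such windows of 250 bases, and CAGATG or its reverse complement CATCTG stood in those of Ntf3, Prox1 and Sema3c, which is 3 of 17 windows against 14.4% of all 32851 windows. A match is a description of the letters, not a bound site, and the leading genes held it about as often as promoters in general.

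**Figure D2:**
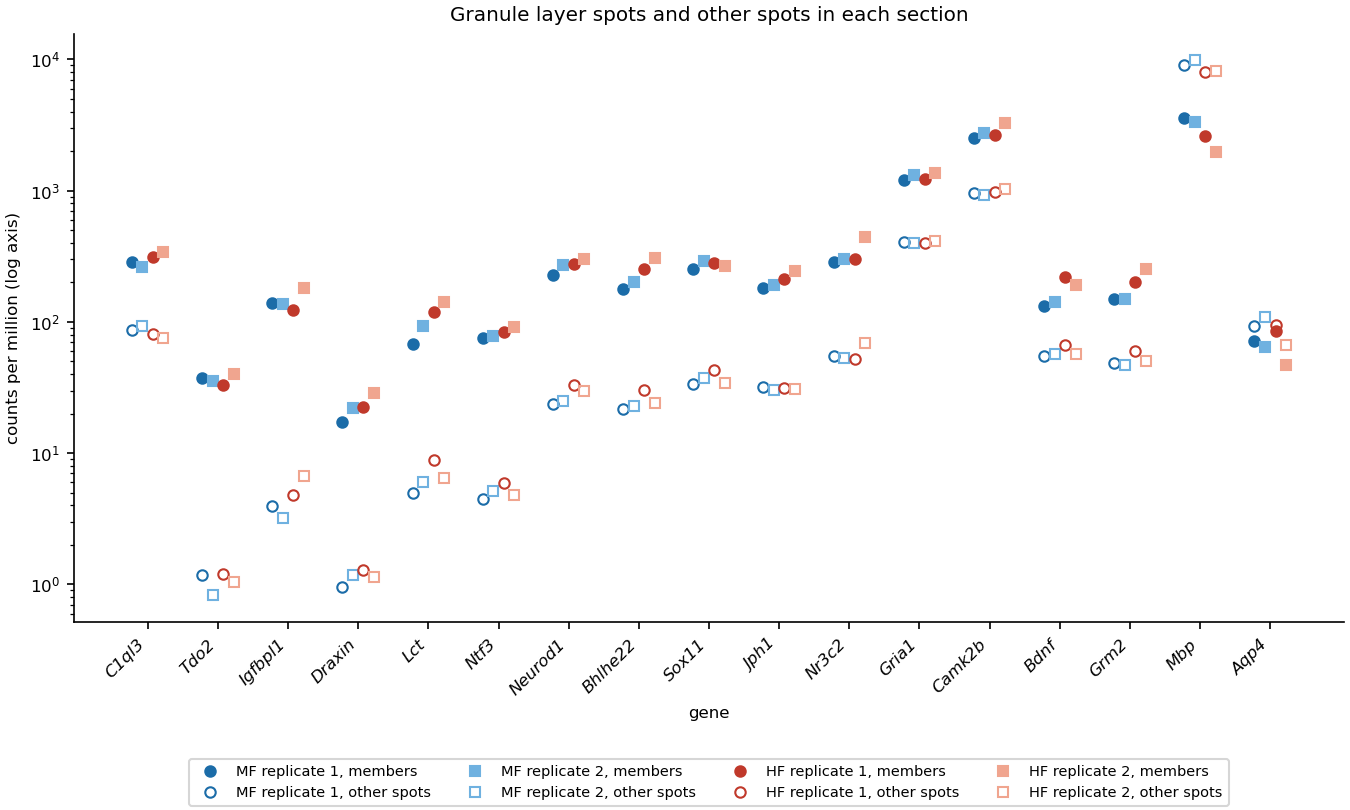
Level of 17 genes in CPM (log axis) in the summed members (filled) and the summed other spots (open) of each section. The granule cell and immature neuron genes lie higher in members in all 4 sections, whereas Mbp and Aqp4 lie lower.

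The label of the layer was checked on granule cell identity genes that the score did not use. Of 13 such genes, 11 were more than 2 times as high in members in all 4 sections, and all 13 were higher. Among them, C1ql3 averaged 301 ± 33.5 against 83.9 ± 7.17 CPM, the channel gene Trpc6 43.5 ± 13.7 against 7.18 ± 0.98 CPM, and Plk5 51.1 ± 13.1 against 15.1 ± 1.96 CPM. Calb1, the calcium buffer calbindin of mature granule cells, had a smaller ratio, at 370 ± 32.1 against 257 ± 5.07 CPM. Many other neurons express it too. The check has limits, since the lists were written with earlier results of these data known. When C1ql3, Plk5 and Tdo2 chose 45 spots per section instead, few were members. The overlap was 18 and 13 spots in MF replicates 1 and 2, and 9 and 23 in HF replicates 1 and 2.

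Immature granule cell genes were high too. Of 15, 11 were more than 2 times as high in all 4 sections. Dcx, the microtubule protein doublecortin of young neurons, averaged 148 ± 19.7 against 39.2 ± 2.93 CPM, and Sox4 66.0 ± 9.75 against 22.1 ± 1.99 CPM. Calb2 went against the list at 255 ± 38.5 CPM in members and 296 ± 39.0 CPM elsewhere. Eomes, the factor of intermediate progenitors, averaged only 9.56 ± 2.23 CPM in members but 0.31 ± 0.22 CPM in other spots.

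Dividing cell genes gave a weaker contrast, and stem cell genes were mixed. Only 2 of 10 radial glia-like stem cell genes were more than 2 times as high in all 4 sections. Of the 10, 4 were higher and 2 lower in all 4 sections, and the median log2 ratio of members to other spots was 0.02. Hopx, a homeodomain protein of quiescent stem cells, averaged 73.1 ± 11.6 against 31.5 ± 5.20 CPM. Mki67, present in dividing cells, averaged 11.7 ± 4.43 against 2.88 ± 0.16 CPM, on 8 to 26 UMIs per section. Ccnd2, the cyclin of the progenitors, had 88 to 199 UMIs per section, while Pcna and Hmgb2 had no more than 2, so the count of the 11 proliferation genes rests largely on Ccnd2.

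Some synaptic, receptor and signalling genes of mature granule cells were higher in members, but their lists were mixed. Of 24 glutamate receptor and postsynaptic genes, 14 were higher and 7 lower in members in all 4 sections, and 3 were more than 2 times as high. Of 11 GABA-A receptor genes, 5 were higher and 5 lower, and of 13 peptide and neurotrophin genes 3 were higher and 7 lower. Nor were the summed lists highest in the granule layer. Glutamate receptor and postsynaptic genes summed to 12982 to 14576 CPM in members and 16215 to 18011 CPM in CA1 spots. GABA-A receptor genes summed to 2323 to 2627 CPM in members and 2878 to 3148 CPM in CA1 spots. Peptide and neurotrophin genes summed to 2291 to 2572 CPM in members and 4212 to 4793 CPM in CA2-3 spots. The examples that follow are from those with high ratios to the other spots. Gria1, an AMPA receptor subunit, averaged 1275 ± 78.4 CPM in members and 404 ± 5.24 CPM elsewhere. Camk2b, a postsynaptic kinase, averaged 2815 ± 328 against 974 ± 37.9 CPM, and Gabra5, a GABA-A receptor subunit, 388 ± 56.9 against 120 ± 7.02 CPM. These are parts of the synapses that granule cells receive. Grm2, a presynaptic glutamate receptor of mossy fibres, averaged 188 ± 49.3 against 51.8 ± 5.97 CPM. Nr3c2, the mineralocorticoid receptor through which corticosterone acts at low levels, averaged 333 ± 71.4 against 57.1 ± 7.76 CPM. Bdnf, the neurotrophin that granule cells carry into mossy fibres, averaged 170 ± 41.2 against 58.9 ± 5.54 CPM. Hormone receptor and neurotrophin both stood well above the rest of the tissue. Jph1, a junctophilin that tethers the plasma membrane to the endoplasmic reticulum, averaged 207 ± 28.0 against 31.2 ± 0.75 CPM.

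Genes of glia, thalamus and interneurons were low in members. The 8 genes with the lowest ratios to the other spots included Arhgap36 and Gpx3, which are on none of these lists. Arhgap36 averaged 6.11 ± 2.76 against 49.2 ± 13.5 CPM, and Gpx3, a secreted glutathione peroxidase, 7.07 ± 0.72 against 61.6 ± 19.4 CPM. Of 19 oligodendrocyte and myelin genes, 17 were under 0.5 times the other spots in all 4 sections. Mbp, the myelin basic protein, averaged 2879 ± 739 against 8783 ± 805 CPM. Sst, the interneuron peptide somatostatin, averaged 181 ± 60.2 against 508 ± 39.8 CPM. All 8 thalamus genes and 8 of 10 interneuron genes were lower in all 4 sections. Genes of CA2-3 were not low, with 3 of 8 higher and 1 lower in all 4 sections, and of 8 choroid plexus genes 1 was lower in all 4 sections.

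The members varied among themselves along the score that ranked them. The 15 members of each section with the highest score, the 15 in the middle and the 15 with the lowest held 4390, 3453 and 2291 summed CPM of the identity genes on average, which follows from the rule. Immature granule cell genes did not follow that order, at 2399, 3119 and 2847 CPM, and peaked in the middle 15 in 3 sections but in the lowest 15 of HF replicate 2, at 4395 CPM. Myelin genes ran the other way in all 4 sections, at 6283, 8039 and 12836 CPM on average, and so did astrocyte genes, at 2100, 2952 and 4610 CPM. Stem cell genes averaged 210, 346 and 463 CPM, an order that MF replicates 1 and 2 had and the HF sections did not.

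Single genes differed in their order. Bdnf ran from 218 through 174 to 104 CPM with decreasing score, and Calb1 from 449 through 378 to 257 CPM. Neurod1 was highest in the middle 15 in 3 sections, at 283 to 364 CPM, but in HF replicate 2 it was highest in the lowest 15, at 449 CPM. Hopx was lowest in the highest-scoring 15 in 3 sections, and in HF replicate 2 it was at 49.1, 36.5 and 158 CPM. Mki67 had no common order, at 11.8, 12.0 and 3.80 CPM in HF replicate 1 and 0, 0 and 45.2 CPM in HF replicate 2.

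The lists were also summed by distance from the layer. Averaged over the 4 sections, identity genes summed to 3495 CPM in members and to 1327, 897 and 759 CPM at 1, 2 and 3 array steps from the nearest member. Stem cell genes peaked beside the layer, with 330 CPM in members, 439 CPM at 1 step, 387 CPM at 2 steps and 271 CPM at 5 steps or more. The rise at 1 step was not particular to them. Astrocyte, microglia and vessel genes rose from 3044, 354 and 187 CPM in members to 5700, 738 and 462 CPM at 1 step. Hopx was at 73.1, 94.4 and 80.3 CPM over the first 3 distances and 28.0 CPM at the farthest, and was higher at 1 step than in members in all sections but HF replicate 1. Igfbpl1 was at 146 CPM in members, and at 1 step it was at 22.7 to 26.6 CPM in 3 sections and 120 CPM in HF replicate 2. Identity genes at 1 step summed to 1682 CPM in HF replicate 2, against 1134 to 1316 CPM elsewhere. In HF replicate 2 the spot ranked 60 still scored 1.084, above the lowest members elsewhere, at 0.988 to 1.007. The part of such spots in the values at 1 step was not tested.

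Genes of several other cell types were higher outside the layer. Myelin genes summed to 8528 CPM in members and 18705 CPM at 1 step. Astrocyte genes summed to 3044 and 5700 CPM, and genes of CA2-3 pyramidal cells were at 302 CPM in members and at most 434 CPM, at 2 steps. Choroid plexus genes differed between sections, at 4532, 1873, 11155 and 42195 CPM at 3 steps in MF replicates 1 and 2 and HF replicates 1 and 2. Choroid plexus lies in the ventricles, which border the hippocampus.

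**Figure D3:**
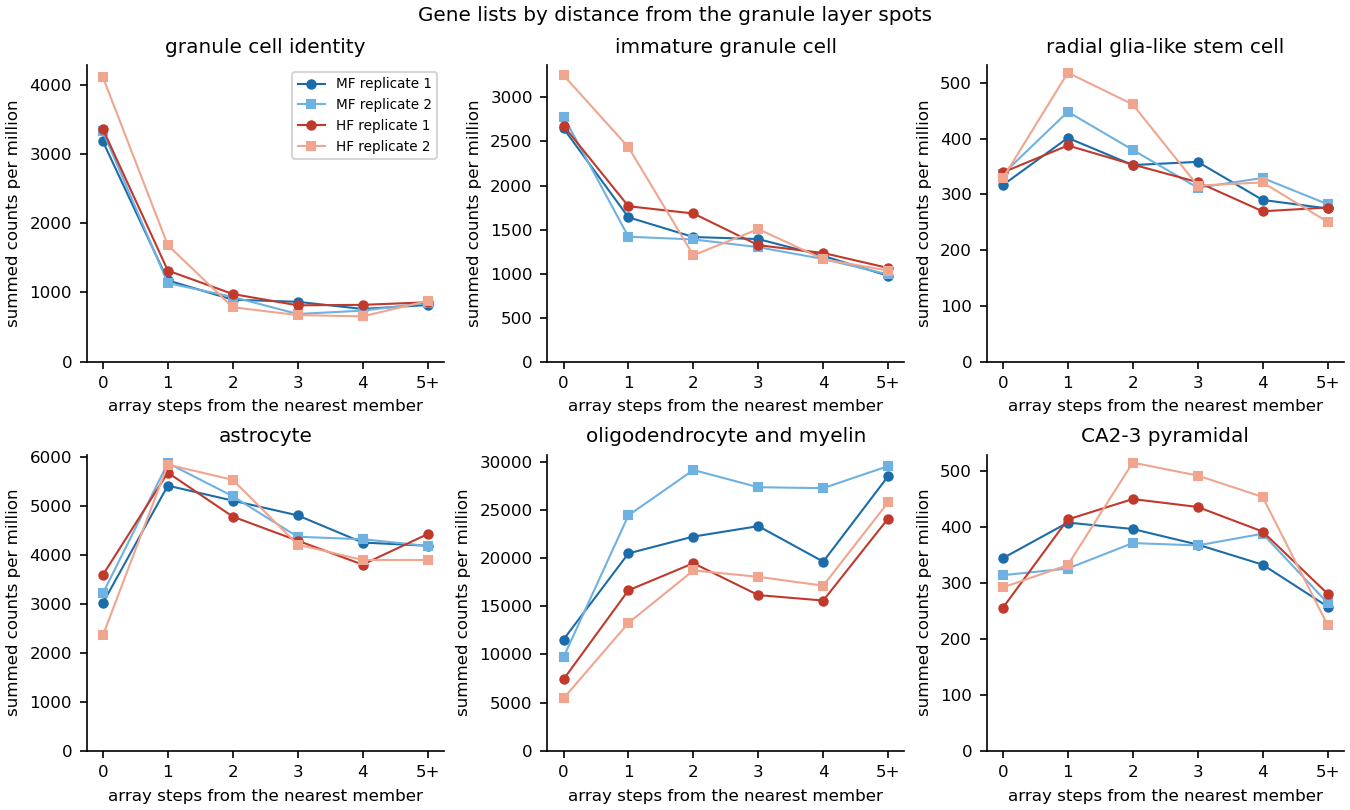
Summed CPM of 6 gene lists by array steps from the nearest member (0 marks the members, 5+ all spots at 5 steps or more), with 1 line per section. Identity genes drop after step 0, stem cell and astrocyte genes are higher at step 1 than in members on average, and myelin genes are higher outside the layer.

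The comparison of the diets asked which genes of the granule layer differed between offspring of HF and MF mothers. UMIs of the 45 members were summed per section, so that each diet had n = 2, and tested across 10471 genes with edgeR's quasi-likelihood test and Benjamini-Hochberg adjustment. Genes were called at an adjusted p under 0.05 and at least 1.2-fold. There were 11 calls (0.105%), of which 1 was higher in HF (0.00955%) and 10 were lower (0.0955%). With 2 sections per diet these p-values measure only the spread between these sections. No gene was called without MF replicate 1 or without MF replicate 2, whereas 295 were called without HF replicate 1 and 20 without HF replicate 2. In such fits the lone section is assumed to vary as the pair of the other diet does. All 11 genes kept their direction in every alternative.

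Egr1, an immediate early transcription factor induced by neuronal activity, was the gene called higher. Its level in members was 34.8 and 52.2 CPM in MF replicates 1 and 2, and 140 and 200 CPM in HF replicates 1 and 2. Both HF sections lay well above both MF sections. The log2 fold change was 2.05 (SE 0.20, edgeR adjusted p = 7.73e-05), and it was 1.76 without HF replicate 2.

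Egr1 was higher in HF outside the layer too. Its log2 fold change was 2.41 in the spots that adjoined members (edgeR adjusted p = 7.2e-05), 2.61 in CA1 spots (adjusted p = 7.4e-11) and 2.44 in CA2-3 spots (adjusted p = 0.0188). In all other spots it was 2.21 (adjusted p = 0.675), where the levels were 49.4 and 58.2 CPM in the MF sections and 157 and 343 CPM in the HF sections. The difference between the diet effect in members and in other spots was −0.17 (adjusted p = 0.969).

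Other activity-induced genes did not pass. Of 25 tested, Egr1 alone was called, 8 had both HF sections above both MF sections, as 17.3% of all genes did, and 1 had both below, as 18.9% of all genes did. The list's median log2 fold change was 0.24, against 0.00017 over all genes tested and 0.37 for the list in other spots, and it was 0.40 without HF replicate 2. Fos was at 5.79 and 5.31 CPM in MF and 12.8 and 11.3 CPM in HF (log2 fold change 1.09, adjusted p = 0.692). Arc was at 47.8 and 61.1 CPM in MF and 102 and 48.9 CPM in HF, so its groups overlapped, and Nr4a1 overlapped too.

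Bdnf, itself an activity-regulated gene, separated by diet, as 17.3% of all genes did in that direction, without passing the test. It was at 132 and 141 CPM in MF and 219 and 190 CPM in HF, with a log2 fold change of 0.59 (SE 0.13, edgeR adjusted p = 0.125). In other spots the value was 0.13.

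Myelin and oligodendrocyte genes made up most of the calls in the other direction. Oligodendrocytes wrap axons in myelin, and some of them lie in the hilus and molecular layer beside the granule cells. Of 18 such genes tested, 7 were called lower in HF, none was called higher, 15 had both HF sections below both MF sections, and all 18 had a fold change below 0. Over all 10471 genes tested, 0.0955% were called lower, 18.9% had both HF sections below both MF sections and 5234 genes were below 0. The median log2 fold change of the list was −0.77.

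Opalin, a membrane protein of myelinating oligodendrocytes, was at 96.5 and 77.0 CPM in MF and 32.4 and 40.1 CPM in HF. Both HF sections lay below both MF sections by a wide margin, and the log2 fold change was −1.27 (SE 0.20, edgeR adjusted p = 0.0156). Ugt8a, the enzyme that makes the myelin lipid galactosylceramide, was at 118 and 102 CPM in MF and 60.8 and 44.5 CPM in HF, with a log2 fold change of −1.08 (SE 0.18, adjusted p = 0.0169). Cldn11, the tight junction protein of myelin, was at 380 and 291 CPM in MF and 210 and 141 CPM in HF (−0.95, adjusted p = 0.0241). In Ugt8a and Cldn11, HF replicate 2 was the lowest section.

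Mal, Mobp and Cnp had smaller fold changes than these. Mal, a proteolipid of myelin membranes, was at 525 and 410 CPM in MF and 268 and 271 CPM in HF (log2 fold change −0.80, edgeR adjusted p = 0.0169). Mobp was at 1289 and 1129 CPM in MF and 821 and 701 CPM in HF (−0.67, adjusted p = 0.0242). Cnp, the cyclic nucleotide phosphodiesterase of myelin, was at 863 and 788 CPM in MF and 574 and 416 CPM in HF (−0.74, adjusted p = 0.0327). The groups were apart for each of these genes.

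Tspan2, a tetraspanin of oligodendrocytes that was not on the list, was called as well, at 370 and 272 CPM in MF and 195 and 182 CPM in HF (log2 fold change −0.78, edgeR adjusted p = 0.0399). Mbp was at 3592 and 3350 CPM in MF and 2611 and 1964 CPM in HF but missed the threshold (−0.60, adjusted p = 0.0804). Mog (adjusted p = 0.116) and Mag (adjusted p = 0.125) missed it as well, with log2 fold changes of −0.92 and −0.83.

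**Figure D4:**
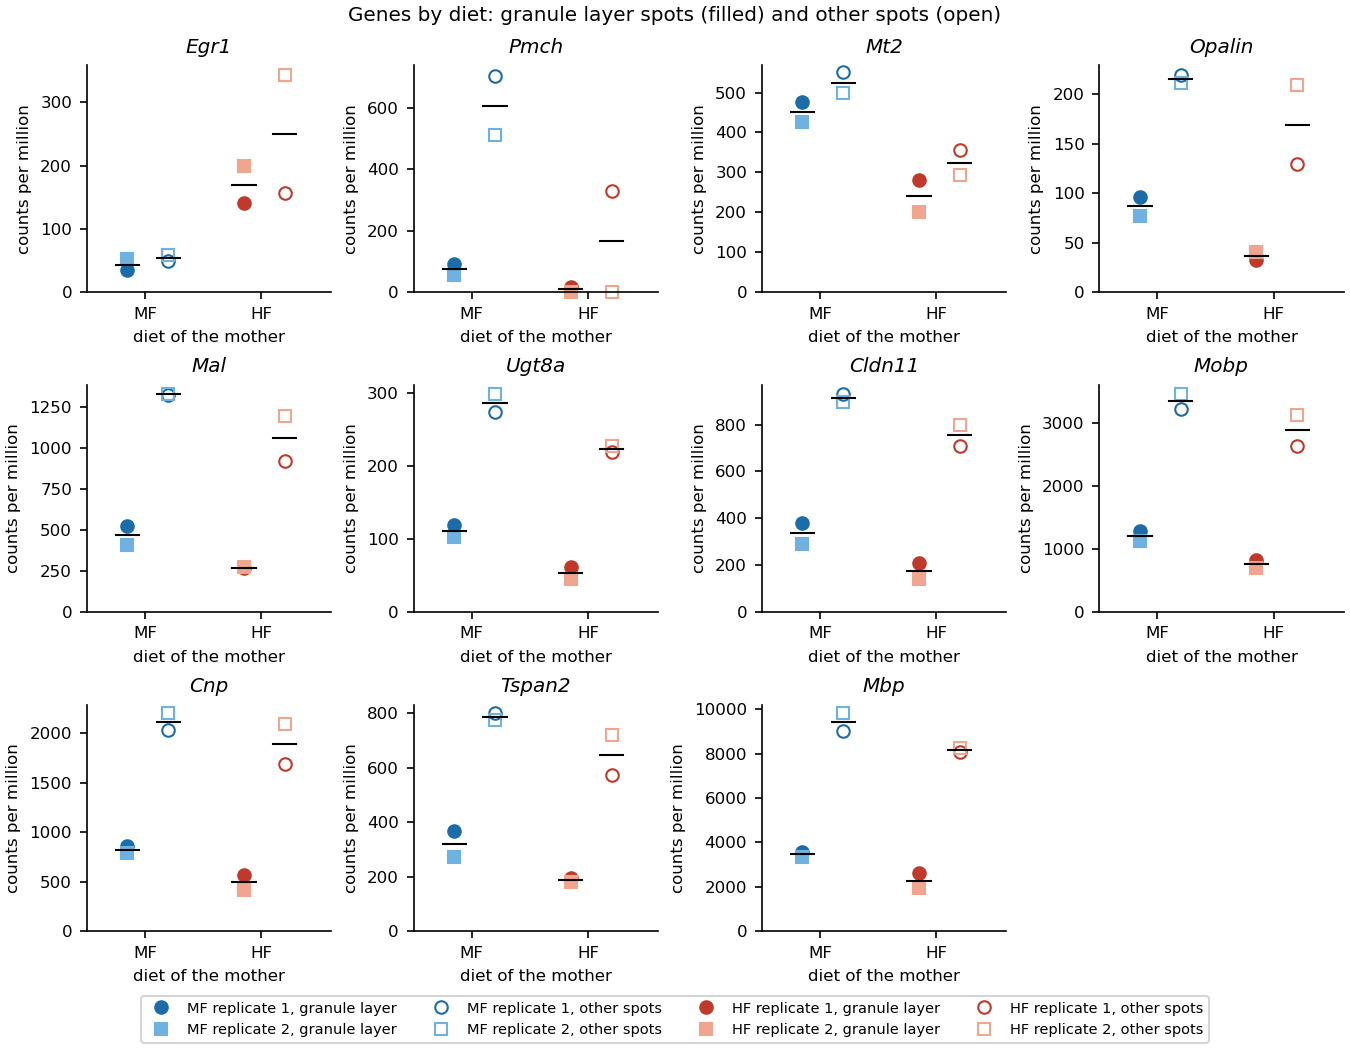
CPM of 10 called genes and Mbp by diet of the mother, with 1 point per section for granule layer spots (filled) and other spots (open) and a line at the mean of each pair. In granule layer spots the HF points of Egr1 lie above the MF points and those of the other 10 genes below.

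The stretches before the start of 4 called myelin genes are shown because these genes moved together. They were searched on both strands for ACAAAG (reverse complement CTTTGT), the core of the motif of Sox factors such as Sox10, which drives oligodendrocyte genes. Each is written 5′ to 3′ on the strand of its gene, with matches in capitals, from GRCm38.p6 at chr19:41077114-41077363 (minus strand) for Opalin, chr11:100574689-100574903 (plus) for Cnp, chr9:120149492-120149706 (plus) for Mobp and chr2:127656696-127656945 (minus) for Mal.
Opalin: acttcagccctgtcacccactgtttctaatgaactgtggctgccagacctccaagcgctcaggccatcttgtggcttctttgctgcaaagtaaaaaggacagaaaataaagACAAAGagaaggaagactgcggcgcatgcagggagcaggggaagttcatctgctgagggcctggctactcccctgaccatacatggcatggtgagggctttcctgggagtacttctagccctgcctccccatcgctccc
Cnp: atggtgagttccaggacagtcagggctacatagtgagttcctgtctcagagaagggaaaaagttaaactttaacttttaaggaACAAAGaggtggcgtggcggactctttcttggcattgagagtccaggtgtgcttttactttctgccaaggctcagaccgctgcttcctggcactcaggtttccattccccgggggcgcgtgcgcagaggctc
Mobp: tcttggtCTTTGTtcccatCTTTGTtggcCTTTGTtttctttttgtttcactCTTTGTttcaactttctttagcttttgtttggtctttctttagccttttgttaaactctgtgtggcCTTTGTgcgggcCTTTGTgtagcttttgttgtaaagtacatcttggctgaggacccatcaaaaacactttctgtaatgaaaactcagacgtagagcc
Mal: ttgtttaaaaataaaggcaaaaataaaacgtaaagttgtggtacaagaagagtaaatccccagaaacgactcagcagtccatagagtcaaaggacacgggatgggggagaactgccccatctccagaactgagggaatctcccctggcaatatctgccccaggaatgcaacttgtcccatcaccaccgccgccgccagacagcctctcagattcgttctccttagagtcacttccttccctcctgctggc
Opalin and Cnp hold 1 match each, Mobp holds 6 and Mal none. Of 6 windows for the 7 called genes of the list, 3 held the motif, against 16.5% of all windows. This is a description of the letters and says nothing of binding.

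Myelin genes had negative medians around the layer as well. The median log2 fold change of the list was −0.61 in neighbouring spots, −0.62 in CA1 spots and −0.51 in CA2-3 spots, and −0.22 in all other spots, where no gene of any kind was called (0 of 14950, 0.0%, with 1002 at an unadjusted p under 0.05 by edgeR). The fold change of Opalin in other spots was −0.36. For Opalin, the diet effect in members minus that in other spots was −0.93 (edgeR adjusted p = 0.0554), which did not pass.

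The level of myelin genes was lowest in the HF replicate 2 members, which also had the highest scores. Their summed myelin level was 5440 CPM, against 7414 CPM in HF replicate 1 and 11545 and 9713 CPM in MF replicates 1 and 2. Without HF replicate 2 the median of the list was −0.50, and without HF replicate 1 it was −1.13, so both HF sections were lower than the MF sections by different amounts. With members set by a score of at least 1.3 in place of a fixed number, 22 genes of all kinds were called. That setting took 46 spots in HF replicate 2 and 30 or 31 in each of the other sections. How far the share of granule cell RNA in the spots set the myelin values was not tested.

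Markers of other cells gave no call. Of 12 astrocyte genes, 10 had a fold change below 0, with a median of −0.23 that became 0.14 without HF replicate 2. The medians were −0.07 for interneuron genes, −0.19 for microglia genes, −0.23 for vessel genes and −0.26 for CA1 genes. Without HF replicate 2 they were 0.08, 0.06, −0.07 and 0.18, so all but the vessel median turned. For CA2-3 genes the median was −0.31, with both HF sections below both MF sections in 5 of 8, and it was −0.47 without HF replicate 2. All 3 mossy cell genes tested had a fold change below 0, with a median of −0.64, and 2 of them had both HF sections below both MF sections. Over all genes tested, 18.9% had both HF sections below both MF sections. Summed vessel CPM was 209 and 194 in MF and 205 and 138 in HF, so that HF replicate 2 alone was low. Spink8, which marks CA1, had 13, 12, 7 and 3 UMIs, and Lefty1 had none in the MF sections and 1 in each HF section.

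The thalamus lies below the hippocampus. Of 7 thalamus genes tested, none was called and 5 had both HF sections below both MF sections, against 18.9% of all genes tested. Their median was −0.65. The list's median was below 0 around the layer too, at −0.43 in neighbouring, −0.39 in CA1 and −0.35 in CA2-3 spots. In all other spots it was 0.22. The median in members was −0.32 without MF replicate 1 and −0.89 without MF replicate 2. Summed thalamus CPM was 510 and 374 in MF and 294 and 281 in HF. Prkcd, a kinase abundant in thalamic relay neurons, was at 132 and 93.8 CPM in MF and 73.6 and 53.2 CPM in HF (log2 fold change −0.88, adjusted p = 0.125).

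Pmch, the gene of melanin-concentrating hormone made in lateral hypothalamus neurons, was called lower in members with a log2 fold change of −3.17 (SE 0.48, edgeR adjusted p = 0.0156). It had 188 and 63 UMIs in the members of MF replicates 1 and 2 and 18 and 0 UMIs in HF replicates 1 and 2, which were 90.7, 55.8, 17.7 and 0 CPM. A count of 0 there allows up to 2.62 CPM. The same order ran through the rest of the tissue, at 702, 509, 330 and 0.73 CPM in the other spots. Without HF replicate 2 the fold change was −2.12. The part of these other spots' levels in the members' values was not tested.

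Mt2, a metallothionein that binds zinc and copper and is induced by glucocorticoids, was at 476 and 427 CPM in MF and 281 and 202 CPM in HF. The groups were apart, and the log2 fold change was −0.91 (SE 0.14, edgeR adjusted p = 0.0156), with −0.69 without HF replicate 2. It was lower in CA1 spots by the same amount (−0.91, adjusted p = 0.0224), and its log2 fold change was −0.66 in neighbouring spots. In all other spots it was −0.71, at 551 and 498 CPM in MF and 356 and 292 CPM in HF. For Mt2, the diet effect in members minus that in other spots was −0.20 (edgeR adjusted p = 0.933). Mt1, its close relative, had a log2 fold change of −0.28 (adjusted p = 0.669) and Mt3 one of 0.02. Of the 11 glucocorticoid-responsive and metallothionein genes tested, Mt2 alone was called, and the median was −0.12, or −0.23 to −0.02 with 1 section left out.

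No granule cell gene passed the test between the diets. Of the 16 identity genes, 13 had a fold change above 0, against 5237 of all 10471 genes tested. Both HF sections lay above both MF sections in 7 of the 16, against 17.3% of all genes. The median of 0.23 became 0.05 without HF replicate 2, whose members scored highest. The score genes, whose levels are set in part by the choice of members, were at 207, 240, 207 and 269 CPM for Dsp, 395, 445, 412 and 495 CPM for C1ql2, and 662, 654, 655 and 871 CPM for Prox1 in MF replicates 1 and 2 and HF replicates 1 and 2. HF replicate 2 was the highest section for each.

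Immature granule cell genes gave no call either. Of 14 tested, 11 were above 0, with a median of 0.15 that became 0.01 without HF replicate 2. Sox11 was at 254 and 290 CPM in MF and 281 and 267 CPM in HF, and Neurod1 at 227 and 272 against 275 and 304 CPM (log2 fold change 0.23, adjusted p = 0.769). Of 8 stem cell genes tested, 5 were above 0, with a median of 0.16 that was −0.03 without MF replicate 1, 0.32 without MF replicate 2 and 0.05 without HF replicate 2. Bhlhe22 had both HF sections higher, at 179 and 201 CPM in MF and 255 and 307 CPM in HF. So did 17.3% of all genes tested, and Bhlhe22 did not pass (0.58, edgeR adjusted p = 0.125).

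Several synaptic and metabolic genes that were higher in members than elsewhere also separated by diet without passing. A rule that named them asked for HF and MF sections that did not overlap. Of all genes tested, 17.3% had both HF sections above both MF sections. Grm2 was at 149 and 150 CPM in MF and 202 and 252 CPM in HF (log2 fold change 0.61, edgeR adjusted p = 0.125). Doc2b, a calcium sensor of spontaneous transmitter release, was at 189 and 199 CPM in MF and 259 and 326 CPM in HF (0.60, adjusted p = 0.125). Cyp7b1, the hydroxylase of neurosteroids and oxysterols, was at 77.7 and 60.2 CPM in MF and 118 and 119 CPM in HF (0.75, adjusted p = 0.116). In other spots the log2 fold change of Cyp7b1 was 0.0033. Lct was at 67.6 and 93.8 CPM in MF and 119 and 141 CPM in HF (0.74, adjusted p = 0.133). None of the 24 glutamate receptor and postsynaptic genes or the 10 GABA-A receptor genes was called, with medians of 0.06 and 0.13.

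Genes nearest to the diet itself showed no call. Of 24 folate and one-carbon genes tested, 10 were above 0 and 14 below, with a median of −0.02. Folr1, the folate receptor of the choroid plexus, was at 16.9 and 15.05 CPM in MF and 7.85 and 11.3 CPM in HF (log2 fold change −0.73, adjusted p = 0.751), on 8 to 35 UMIs.

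DNA methylation genes gave no call, with 5 of 11 above 0 and a median of −0.04. Dnmt3a, a de novo methyltransferase, was at 142 and 145 CPM in MF and 148 and 148 CPM in HF. Tet2, which oxidises methylcytosine, was at 52.6 and 56.6 CPM in MF and 32.4 and 39.3 CPM in HF (log2 fold change −0.59, adjusted p = 0.598). Ribosome biogenesis genes had a median of −0.03 over 18 genes and clock genes 0.02 over 15 genes, again without a call. The features held no ribosomal protein gene, so those that the study reported in dentate gyrus neurons could not be followed.

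Genes that the study discussed, Jph1 and Tpt1 in granule neurons and Cmss1 and Filip1l in excitatory neurons of the hippocampus, were followed by name. Jph1 was at 181 and 190 CPM in MF and 212 and 244 CPM in HF, apart by diet but not past the threshold (log2 fold change 0.31, SE 0.13, adjusted p = 0.696). Tpt1, the translationally controlled tumour protein, had a log2 fold change of −0.05 and Cmss1, a ribosomal small subunit factor, one of −0.23. Filip1l had 0.87 to 2.94 CPM and was too low to be tested.

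**Figure D5:**
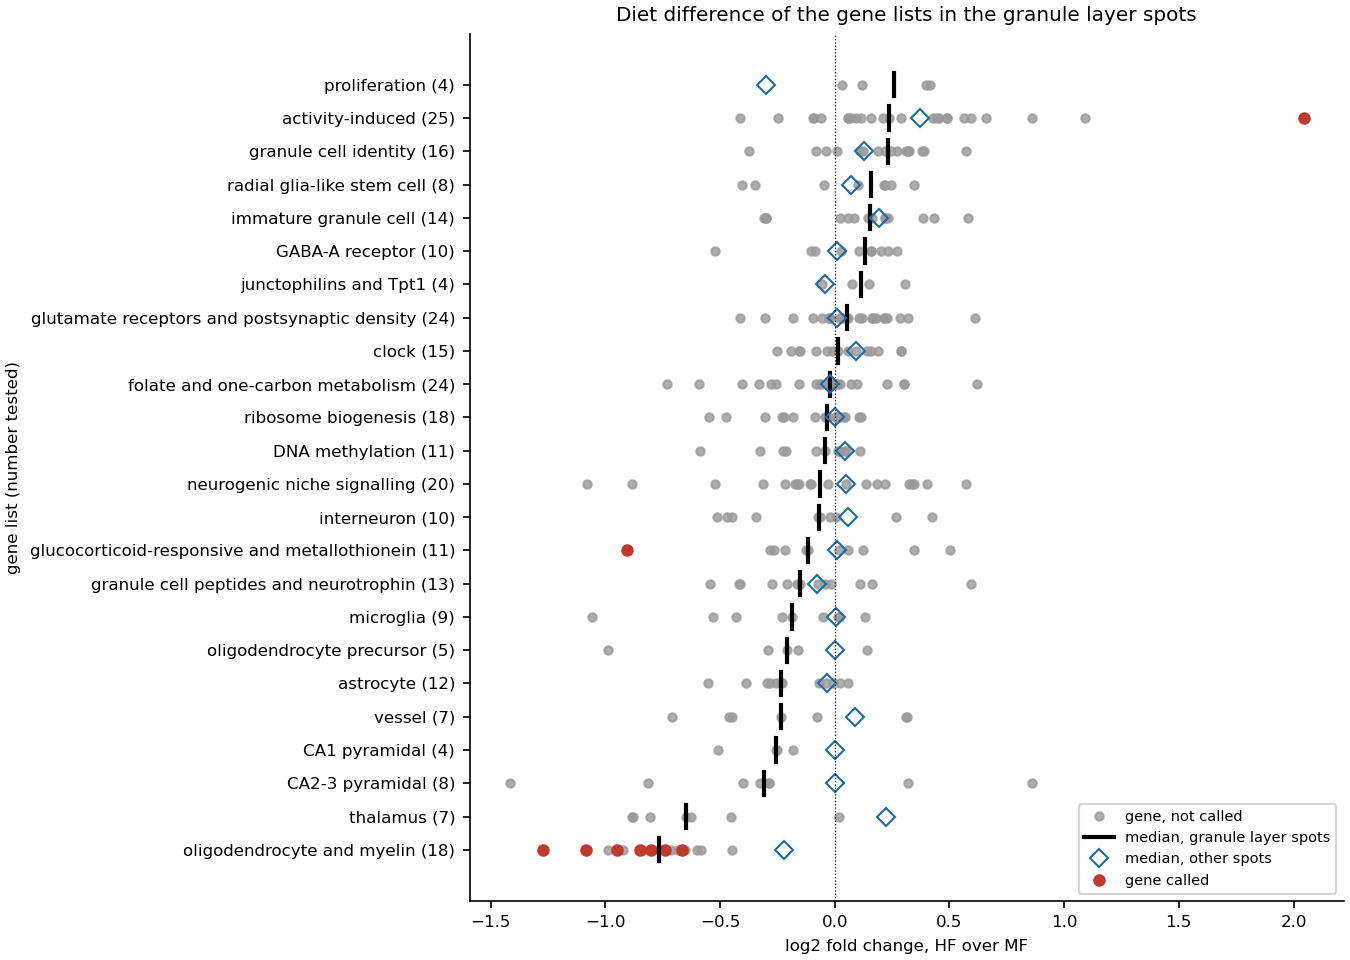
Log2 fold change (HF over MF) of each tested gene in granule layer spots by list, with called genes in red, the median of the list as a black bar and its median in other spots as an open diamond. The myelin list has the lowest median, −0.77, and holds 7 of the called genes.

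Whether the layer responded differently from its surroundings was tested as a difference between diet effects with the section as a block. Against all other spots, 3 of 14486 genes passed (0.0207%), each with a lower diet effect in members, and 809 had an unadjusted p under 0.05. The count was 2 without MF replicate 1, 24 without MF replicate 2, 98 without HF replicate 1 and 11 without HF replicate 2. Zic1, a transcription factor of the thalamus and septum, was at 123, 73.5, 55.9 and 60.2 CPM in the members of MF replicates 1 and 2 and HF replicates 1 and 2, and at 124, 131, 175 and 151 CPM in other spots. The HF sections were lower in members and higher elsewhere, and the difference was −1.18 on the log2 scale (SE 0.19, edgeR adjusted p = 0.0018). Without MF replicate 1, whose members held the most Zic1, it was −0.62 and did not pass.

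Hbb-bs, a beta-globin of red blood cells, was at 1042, 824, 871 and 336 CPM in members and 1514, 888, 1654 and 901 CPM in other spots. Its difference of −0.80 (SE 0.13, adjusted p = 0.0018) did not pass without MF replicate 2, at −0.61. Gm5741, a predicted gene, was at 46.3, 18.6, 10.8 and 14.0 CPM in members and 23.9, 22.3, 32.7 and 21.9 CPM in other spots. Its difference of −1.71 (SE 0.34, adjusted p = 0.0421) was lost without MF replicate 1, at −0.83, and without HF replicate 1, at −1.25.

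Against the closest tissue no gene passed. None of 10591 genes passed against CA1 spots (0.0%), with 531 at an unadjusted p under 0.05, and none of 10996 against neighbouring spots (0.0%), with 462 at an unadjusted p under 0.05, both by edgeR. Without HF replicate 1 the counts were 19 and 38, without MF replicate 2 they were 2 and 0, without MF replicate 1 they were 1 and 0, and without HF replicate 2 they were 0 and 3. Within those spots themselves, HF against MF gave 4 calls in CA1 (0.0473%), 1 in CA2-3 (0.012%) and 6 in neighbouring spots (0.0612%).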

How the data were processed

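The authors counted UMIs with Space Ranger 2.0.0 on mm10, per the submitters' processing notes, and deposited raw UMI counts per gene and spot, with array positions. Spot barcodes mark array positions and are shared by design, and no doublets were called. Members and gene lists were chosen with earlier results of these data known. Counts were summed per section over members, all other spots, spots adjoining a member, and the 30 spots with the highest scores for CA1 or CA2-3 markers. Sums were normalised by TMM, filtered by filterByExpr and tested with edgeR 4.0.16 (R 4.3.3), with DESeq2 1.42.0 as an alternative. The study's methods tested single spots, whereas the section is the replicate here.

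Genes were named from 27 lists, the 20 highest and 8 lowest ratios of members to other spots, up to 12 genes per direction between the diets (filled by smallest p among non-overlapping genes of at least 20 CPM), and the 5 smallest p of each difference. Promoters are from RefSeq (GRCm38.p6), without bases of annotated exons. Gene positions are from GENCODE (19451 of 19465 features matched). Tests were checked on simulated data. Alternatives changed the filter, scaling, members, depth (5000 UMIs per spot) and sections, and the score of at least 1.3 was chosen after seeing the data. Results for a few genes are not reported here.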

Additional observations from a re-analysis of the deposited data

Results flagged for a closer look

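For 3 genes the diet effect in granule layer spots differed from that in all other spots by a test of the difference itself. The difference in log2 fold change was −1.175 for Zic1, −0.7989 for Hbb-bs and −1.711 for Gm5741. Each lost its call when 1 section was left out. The members of MF replicate 1, which held the most UMIs of Zic1 and Gm5741, also held the most summed CPM of thalamus genes, 510 against 281 to 374 in the other sections. Zic1 is itself 1 of the 8 genes of that list, at 123 CPM in MF replicate 1 and 55.9 to 73.5 CPM in the other sections. The part of neighbouring thalamus in these values was not tested.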

How the results depend on the processing

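For the 11 calls between the diets, DESeq2 gave 6, scaling by library size 8 and no filter on low counts 47. Leaving out 1 section gave 0 to 295. With 30 members per section there were 5 and with 60 there were 21. Thinning members to 5000 UMIs gave 17, thinning all spots before the score 0, members with at least 2 neighbouring members 27, members by C1ql3, Plk5 and Tdo2 3, and the score of at least 1.3, added after seeing the data, 22. The labels number the replicates in each diet, but sections of the same number did not deviate together (correlation −0.023). This correlation alone cannot exclude a pairing that the labels do not give. With the replicate block 41 genes were called.

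The 3 differences from other spots became 25 without the filter, 19 with 30 members, 13 with 60, 8 with members thinned, 21 with at least 2 neighbouring members, 10 with the score of at least 1.3 and 2 to 98 with a section left out. The 0 differences from CA1 spots became 1 without the filter, with 30 members and with all spots thinned, 4 with members thinned, 2 with members by C1ql3, Plk5 and Tdo2, and 0 to 19 with a section left out. The 0 differences from neighbouring spots became 1 with members by C1ql3, Plk5 and Tdo2 and 0 to 38 with a section left out. The 271 genes raised in members became 153 with all spots thinned and 127 with members by C1ql3, Plk5 and Tdo2.

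The activity median of 0.24 was 0.0068 with members thinned, 0.070 with all spots thinned, 0.38 with members by C1ql3, Plk5 and Tdo2 and 0.24 to 0.40 with a section left out. The identity median was 0.046 to 0.33, and the myelin median −1.13 to −0.50, with a section left out. With a section left out, the medians of interneuron, microglia, CA1, astrocyte and stem cell genes turned sign, over −0.65 to 0.084, −0.25 to 0.060, −1.05 to 0.18, −0.42 to 0.14 and −0.027 to 0.32. Those of DNA methylation, ribosome biogenesis and clock genes ranged over −0.17 to −0.015, −0.16 to 0.039 and −0.019 to 0.15. The immature median was 0.0087 to 0.31 with a section left out, −0.016 with 30 members, −0.027 with members thinned, −0.14 with all spots thinned and −0.27 with members by C1ql3, Plk5 and Tdo2.

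Signs turned for genes near 0. With a section left out, the log2 fold change ranged from −0.019 to 0.26 for C1ql2, −0.48 to 0.013 for Cmss1, −0.093 to 0.30 for Dsp and −0.0064 to 0.42 for Prox1. All 4 turned without HF replicate 2, and Dsp also did without MF replicate 1. With the score of at least 1.3, C1ql2 was −0.021 and Dsp −0.016. Of 30 genes followed, 26 never turned. The causes were not tested. Pairs of sections and 8 to 26 UMIs, as for Mki67, limit what can be seen in rare transcripts.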
